A study of Arabidopsis thaliana with 10 samples.

Results

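The subject is 7 senescence-associated genes (SAGs) of Arabidopsis leaves, SAG12, SAG13, SAG20, SAG21, SAG29, SAG101 and BCB, the last also known as SAG14. They were picked by gene symbol and locus from the 33028 rows of the count files, and all 7 passed the filter on low counts, which 21475 rows passed. RNA came from leaves 5 and 6 of plants aged 4 weeks, kept at 22 °C in long days (16 h light, 8 h dark). These plants overexpressed RanG22V, which the labels give as the GTP form of the nuclear transport GTPase Ran, or RanT27N, given as its GDP form, or were the wild type Col. Detached leaves were taken at once (D0) or after 3 days in the dark (D3), and Col was taken at D0 only. There are 2 libraries in each of the 5 groups, RanG22V D3, RanG22V D0, RanT27N D3, RanT27N D0 and Col D0. The promoter that drives the transgenes and the number of lines were not stated in the labels, and neither was whether a group's 2 libraries were separate plants. All p-values here thus reflect only how much these libraries vary, which may be technical variation.

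The sample labels and the names in the file headers disagree for 8 of the 10 libraries. The pair labelled RanG22V D3 has the header RanT27N D3, and the pair labelled RanG22V D0 has the header RanG22V D3. The pair labelled RanT27N D3 has the header RanT27N D0, and the pair labelled RanT27N D0 has the header RanG22V D0. Only the Col D0 pair has the same name in both. Group names below are those of the labels, and RanG22V D0, for example, stands for the libraries so labelled. ASN1, an asparagine synthetase gene known to be induced in darkness, was at 10.8 and 42.7 CPM (counts scaled to a common library size) in RanG22V D3 and at 1485 and 839.7 CPM in RanG22V D0. It was at 0.120 to 1.35 CPM in the other 6 libraries. RBCS1A, a Rubisco small-subunit gene, stood at 336.5 to 509.6 CPM in RanG22V D3 and 78.3 to 209.9 CPM in RanG22V D0, against 2581 to 5356 CPM elsewhere. RAN-1, a Ran gene, averaged 1174 ± 126 CPM in RanG22V D3, 882 ± 44.0 in RanG22V D0, 1426 ± 131 in RanT27N D3, 590.0 ± 42.2 in RanT27N D0 and 346.5 ± 127 in Col D0 (SD, n = 2 each). Which lines or days a comparison between labelled pairs sets side by side is therefore uncertain. The 4 libraries with the higher ASN1 and the lower RBCS1A are the 4 that carry a D3 header. The interaction of line and day, taken as RanG22V minus RanT27N, has the same size and p under both sets of names but the opposite sign.

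Leaf senescence is the ordered breakdown of a leaf whose nitrogen and carbon are moved to growing parts, and darkness brings it on in detached leaves. SAGs are genes whose transcripts accumulate in this phase, but they differ in kind. SAG12 encodes a papain-like cysteine protease of senescing cells and is the usual marker of developmental senescence. SAG29, also called SWEET15, is a sugar transporter of the SWEET family. SAG13 encodes a short-chain dehydrogenase, BCB a blue copper-binding protein, SAG21 a late-embryogenesis-abundant (LEA) protein also linked to oxidative stress, and SAG20 a protein of the wound-induced kind. SAG101 acts with EDS1 in immunity signalled by intracellular receptors.

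Total counts ran from 14187505 to 24496672 per library. Ribosomal RNA took 8.19% of the counts in 1 library labelled RanG22V D0 and 16.78% to 24.54% in the others. The summed level of 3 mesophyll marker genes was 482.8 to 664.6 CPM in RanG22V D3 and 99.7 to 258 CPM in RanG22V D0, against 3699 to 6799 CPM in the other 6 libraries, and none was at 0. CAB2, 1 of the 3, overlapped between the groups. It was at 145.4 and 153.3 CPM in RanG22V D3, 19.8 and 43.7 CPM in RanG22V D0 and 21.3 to 2763 CPM elsewhere. The summed level of 3 phloem companion cell markers was 71.1 to 74.0 CPM in RanG22V D3 and 54.2 to 60.8 CPM in RanG22V D0, against 214.7 to 484.7 CPM elsewhere, with none at 0. One of these 3, APL, overlapped between the groups, at 19.7 to 20.4 CPM in RanG22V D3, 11.97 to 16.4 CPM in RanG22V D0 and 9.15 to 21.0 CPM elsewhere. The sum of 3 guard cell markers was 51.9 to 58.1 CPM in RanG22V D3, 39.4 to 43.2 CPM in RanG22V D0 and 45.5 to 60.1 CPM elsewhere, with 1 at 0 in 1 RanG22V D0 library. Of these, FMA overlapped between the groups. MYB60 was at 0 and 0.622 CPM in RanG22V D0, below every other library. It was at 1.518 and 1.427 CPM in RanG22V D3 and 0.739 to 1.497 CPM elsewhere. KAT1 was at 24.5 and 31.0 CPM in RanG22V D3, 11.0 and 5.41 CPM in RanG22V D0 and 8.28 to 19.5 CPM elsewhere. Epidermis markers summed to 57.8 to 61.0, 31.4 to 47.2 and 95.1 to 171.8 CPM in the same order, with 1 of 3 at 0 in every library. Xylem markers summed to 1.06 to 1.95, 0.814 to 1.19 and 8.88 to 20.6 CPM, with 1 of 3 at 0 in 2 libraries. Of these, XCP2 was at 0 to 0.593 CPM in RanG22V D3 and RanG22V D0 and at 5.45 to 15.6 CPM elsewhere. XCP1 overlapped between both pairs and the other libraries, and IRX3 overlapped between RanG22V D3 and the other libraries. Of 9 markers of seeds, flowers and root hairs 5 to 8 were at 0 in each library. They summed to 4.50 to 5.11 CPM in RanG22V D0 and at most 0.785 CPM elsewhere. In whole leaves, fewer cells of a type and less RNA per cell cannot be told apart, and the part of these shifts in the SAG levels was not tested.

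All 7 genes were measured above the filter, and in the RefSeq annotation of build TAIR10.1 they lie on chromosomes 2, 3, 4 and 5. SAG12 has 3 exons, SAG29 has 6 and SAG20 has 1. SAG21 overlaps AT4G04125 on the same strand in that annotation, so the counts of SAG21 may hold reads of both, and the other 6 overlap no gene. The SAG13 transcript shares a stretch of 209 bases with AT2G29150 at 94.3% identity, and reads from that stretch could be split between the genes. The closest stretch to SAG12 elsewhere was in AT5G50260, at 76.9% identity over 134 bases.

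The 250 bases before the annotated start are shown for SAG12, SAG29 and SAG13, the members whose levels ranged most widely. They were read from TAIR10.1 in the direction of the gene, at chr5:18612989-18613238 on the plus strand for SAG12, chr5:4183355-4183604 on the minus strand for SAG29 and chr2:12600664-12600913 on the plus strand for SAG13. Capitals mark the W-box core TTGAC, the core of the WRKY factor site, and the core ACGTG of the abscisic acid response element (ABRE), each on either strand.
SAG12: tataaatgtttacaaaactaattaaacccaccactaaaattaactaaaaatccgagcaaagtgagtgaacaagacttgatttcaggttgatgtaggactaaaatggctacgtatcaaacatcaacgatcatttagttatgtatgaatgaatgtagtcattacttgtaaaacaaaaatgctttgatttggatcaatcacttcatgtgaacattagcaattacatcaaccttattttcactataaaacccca
SAG29: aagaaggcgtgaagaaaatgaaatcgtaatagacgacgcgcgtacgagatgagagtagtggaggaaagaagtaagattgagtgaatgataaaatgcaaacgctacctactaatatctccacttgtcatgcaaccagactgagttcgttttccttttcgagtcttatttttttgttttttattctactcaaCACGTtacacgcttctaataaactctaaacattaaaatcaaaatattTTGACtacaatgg
SAG13: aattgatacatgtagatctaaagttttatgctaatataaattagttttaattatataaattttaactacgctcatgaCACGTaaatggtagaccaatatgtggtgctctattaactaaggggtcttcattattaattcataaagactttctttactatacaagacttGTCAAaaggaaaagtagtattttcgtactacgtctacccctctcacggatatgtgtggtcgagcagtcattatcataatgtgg
SAG12 has neither core in this window, while SAG29 and SAG13 have 1 of each. Over the 7 members 5 hold TTGAC and 3 hold ACGTG, against 44.9% and 22.9% of 27561 promoter windows of protein-coding genes. The G-box CACGTG, which contains the ABRE core, is in 0 of 7 windows and in 6.5% of all windows. These matches are letters in a window of this length and are not binding data.

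**Figure D1:**
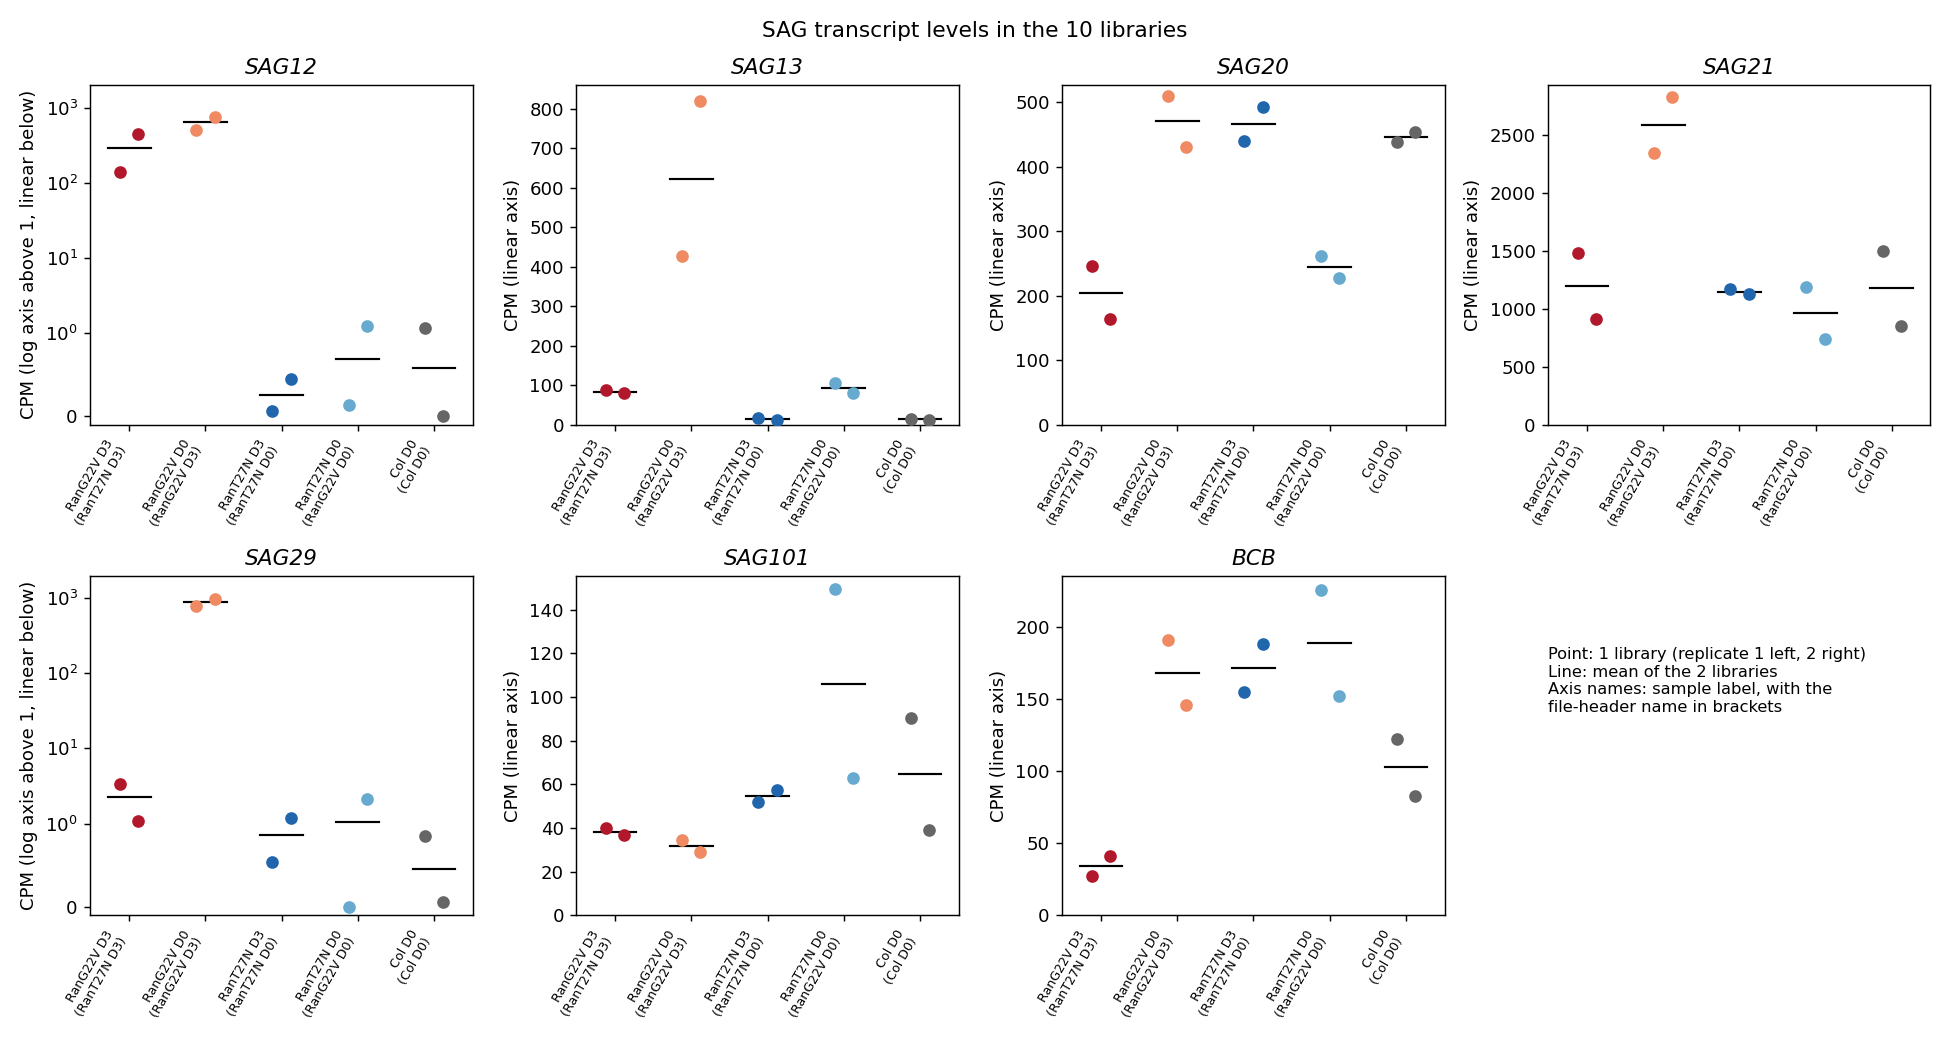
Levels of the 7 SAGs in CPM (y axis) in each of the 10 libraries (points), by sample label with the file-header name in brackets (x axis); lines are means of 2 libraries, and SAG12 and SAG29 have an axis that is logarithmic above 1 CPM. SAG12 is high in the pairs RanG22V D3 and RanG22V D0, SAG29 in RanG22V D0 alone, and BCB is lowest in RanG22V D3.

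SAG12 was on in 4 of the 10 libraries. It was at 139 and 439 CPM in RanG22V D3, 508 and 756 CPM in RanG22V D0, 0.0602 and 0.449 CPM in RanT27N D3, 0.139 and 1.22 CPM in RanT27N D0, and 1.15 and 0 CPM in Col D0. The last 6 values rest on 0 to 31 counts, where 3 counts, the limit that a count of 0 allows, correspond to 0.118 to 0.180 CPM in a library. SAG12 rose in RanG22V D3 over RanT27N D3 by a log2 fold change of 10.09 ± 1.61 (SE, n = 2 each; adjusted p = 0.00652, edgeR's quasi-likelihood test with Benjamini-Hochberg adjustment over all genes). In RanG22V D0 it rose over RanT27N D0 by 9.82 ± 1.54 (adjusted p = 0.00301, edgeR) and over Col D0 by 10.06 ± 1.57 (adjusted p = 0.00221, edgeR). These sizes are loosely set, because the lower group has so few counts. On leaving out 1 library the log2 fold change of SAG12 ran from 9.04 to 12.08 in RanG22V D3 over RanT27N D3, from 8.98 to 12.09 in RanG22V D0 over RanT27N D0 and from 9.02 to 16.58 in RanG22V D0 over Col D0, the highest being without the only Col D0 library that has SAG12 counts. All of these passed the threshold. Between the 2 pairs in which it was on, SAG12 averaged 288.9 ± 212 CPM in RanG22V D3 and 631.9 ± 176 CPM in RanG22V D0 (SD, n = 2 each). Those libraries did not overlap, but the difference missed the threshold (log2 fold change -1.13 ± 1.05, adjusted p = 0.579, edgeR). Among the 3 low groups no neighbouring pair was separated by the spread of its libraries.

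The genes most like SAG12 were sought by the root mean square difference of centred log2 CPM over the 10 libraries. The closest was TH8, a thioredoxin h gene, at 1.05 log2 units, followed by AT1G80165 at 1.11 and GLYI7, a glyoxalase I family gene, at 1.25. TH8 averaged 136.6 CPM in RanG22V D3 and 185.2 CPM in RanG22V D0, and at most 0.862 CPM in the other groups. GLYI7 averaged 183.7 CPM in RanG22V D3 and 1168 CPM in RanG22V D0, and at most 2.04 CPM in the other groups.

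SAG29 was on in RanG22V D0 and low, at 0 to 53 counts, in every other pair. It was at 3.37 and 1.09 CPM in RanG22V D3, 786 and 973 CPM in RanG22V D0, 0.541 and 1.18 CPM in RanT27N D3, 0 and 2.09 CPM in RanT27N D0, and 0.848 and 0.0560 CPM in Col D0. Both libraries of RanG22V D0 lie far above the other 8. SAG29 fell in RanG22V D3 relative to RanG22V D0, with a log2 fold change of -8.64 ± 1.55 (adjusted p = 0.0201, edgeR), with 51 and 23 counts in RanG22V D3, against 17216 and 20329 counts in RanG22V D0. It rose in RanG22V D0 over RanT27N D0 by 9.68 ± 1.62 (adjusted p = 0.00389, edgeR) and over Col D0 by 10.87 ± 1.72 (adjusted p = 0.00234, edgeR). On leaving out 1 library these 2 ran from 8.68 to 17.05 and from 9.93 to 13.77, all past the threshold, with the highest values without replicate 2 labelled RanT27N D0 and without replicate 1 labelled Col D0. Between RanG22V D3 and RanT27N D3 the libraries overlapped and the log2 fold change was 1.34 ± 1.27 (adjusted p = 0.545, edgeR). The centred profiles of SAG12 and SAG29 were 3.16 log2 units apart.

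**Figure D2:**
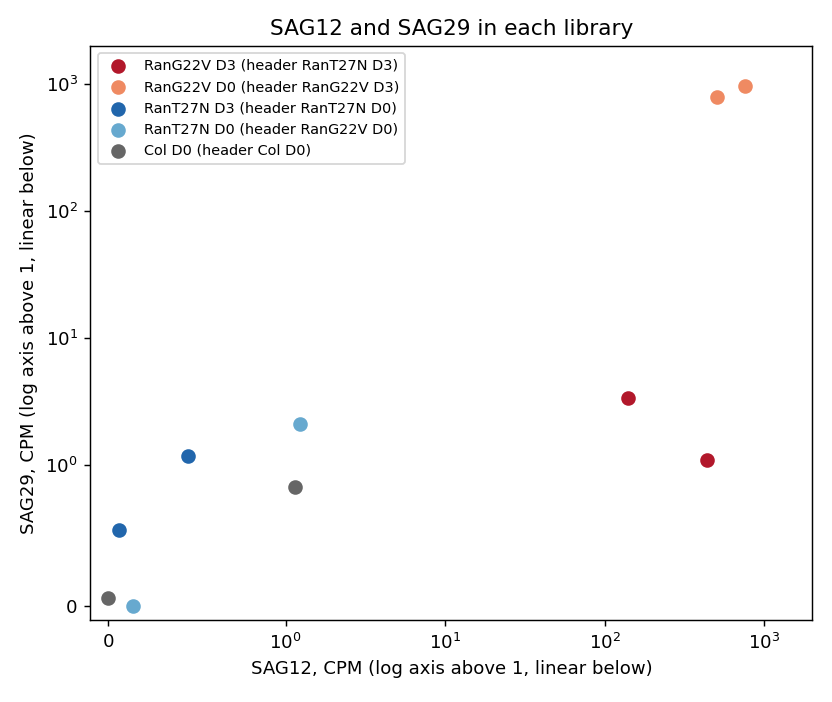
SAG12 (x axis) and SAG29 (y axis) in CPM, 1 point per library, both axes logarithmic above 1 CPM, coloured by sample label. The RanG22V D0 libraries are high in both genes, the RanG22V D3 libraries are at 139 and 439 CPM for SAG12 but at 3.37 and 1.09 CPM for SAG29, and the other 6 are low in both.

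The genes most like SAG29 were AT3G25950, AT1G09500 and AT1G70680, at 1.48 to 1.53 log2 units. AT1G09500 averaged 1.27 CPM in RanG22V D3 and 178.4 CPM in RanG22V D0. AT3G25950 averaged 0.147 CPM in RanG22V D3 and 65.7 CPM in RanG22V D0. All 3 averaged under 1 CPM in RanT27N D3, RanT27N D0 and Col D0.

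SAG13 was the only member called in all 6 comparisons between pairs, and it took 3 levels. It was at 87.2 and 79.8 CPM in RanG22V D3, 427 and 820 CPM in RanG22V D0, 15.6 and 11.9 CPM in RanT27N D3, 105 and 78.8 CPM in RanT27N D0, and 13.02 and 12.76 CPM in Col D0. The top level is RanG22V D0, the middle one holds RanT27N D0 and RanG22V D3, which overlapped, and the bottom one holds RanT27N D3 and Col D0, which overlapped too. SAG13 fell in RanT27N D3 relative to RanT27N D0 (log2 fold change -2.74 ± 0.39, adjusted p = 0.0351, edgeR) and in RanG22V D3 relative to RanG22V D0 (log2 fold change -2.90 ± 0.39, adjusted p = 0.00739, edgeR). The difference between these 2 changes was -0.16 ± 0.52 log2 units (adjusted p = 0.956, edgeR), which does not show that the 2 changes are alike. SAG13 rose 7.13-fold in RanT27N D0 over Col D0 (adjusted p = 0.0344, edgeR), which puts it above the wild type in a pair where SAG12 and SAG29 were low. It rose 48.3-fold in RanG22V D0 over Col D0 (adjusted p = 0.000192), 6.78-fold in RanG22V D0 over RanT27N D0 (adjusted p = 0.00203) and 6.06-fold in RanG22V D3 over RanT27N D3 (adjusted p = 0.00541, all by edgeR).

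The call in RanT27N D3 against RanT27N D0 was lost without any 1 of the 6 libraries labelled RanT27N D3, RanT27N D0 or RanG22V D3, with adjusted p of 0.0536 to 0.279. That in RanT27N D0 against Col D0 was lost without any 1 of the 8 libraries labelled RanG22V D3, RanT27N D3, RanT27N D0 or Col D0, with adjusted p of 0.0519 to 0.142. The fold changes moved little, to between -2.96 and -2.49 in the first comparison and between 2.59 and 3.03 in the other. In these fits the genes called over the whole table numbered 0 to 43 in the first, where all libraries gave 74, and 0 to 46 in the other, where all libraries gave 53.

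The genes whose profiles lay closest to SAG13 were ANAC087, a NAC transcription factor gene, at 0.44 log2 units, AT3G53650 at 0.52, and WRKY75, a WRKY factor gene known to promote leaf senescence, at 0.58. ANAC087 averaged 16.0 ± 5.83 CPM in RanG22V D3, 94.3 ± 7.86 in RanG22V D0, 1.34 ± 0.0157 in RanT27N D3, 12.4 ± 0.596 in RanT27N D0 and 1.60 ± 0.206 in Col D0 (SD, n = 2 each). WRKY75 averaged 8.43 CPM in RanG22V D3, 65.1 in RanG22V D0, 1.63 in RanT27N D3, 16.6 in RanT27N D0 and 2.18 in Col D0. By group means both were highest in RanG22V D0 and lowest in RanT27N D3 and Col D0, as SAG13 was. They were picked for likeness to SAG13 in these libraries, so this is no separate result. The middle groups of WRKY75 lay further apart than those of SAG13, at 16.6 ± 5.53 CPM in RanT27N D0 and 8.43 ± 1.19 CPM in RanG22V D3 (SD).

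**Figure D3:**
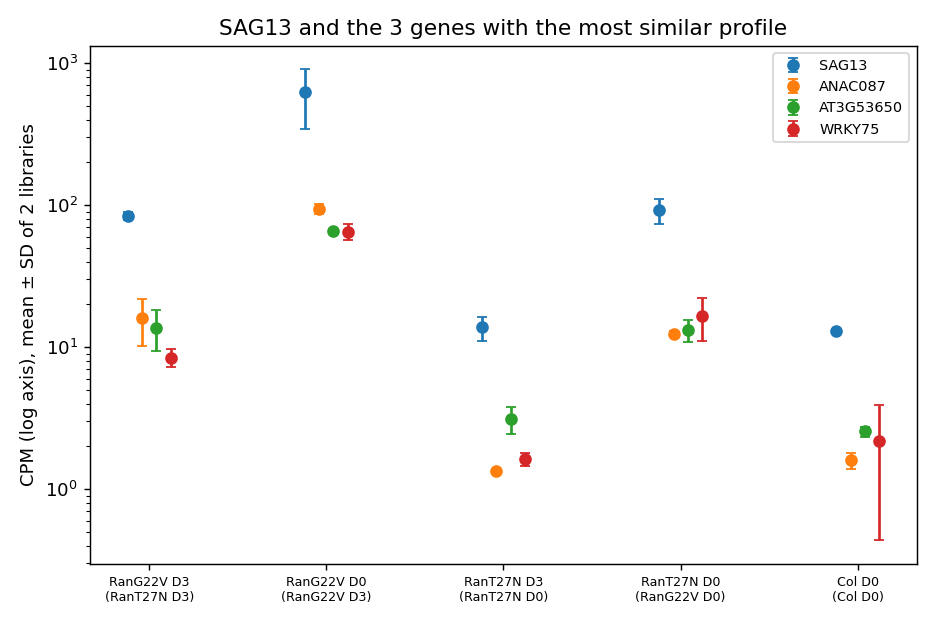
Mean level in CPM (log y axis, error bars are the SD of 2 libraries) of SAG13 and the 3 genes with the most similar profile in the 5 groups, named by sample label with the file-header name in brackets. All 4 genes are highest in RanG22V D0, intermediate in RanG22V D3 and RanT27N D0, and lowest in RanT27N D3 and Col D0.

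BCB was lowest in RanG22V D3. It was at 27.3 and 40.9 CPM in RanG22V D3, 190.4 and 145.4 CPM in RanG22V D0, 155.0 and 188.1 CPM in RanT27N D3, 225.4 and 151.7 CPM in RanT27N D0, and 122.0 and 82.9 CPM in Col D0. Both RanG22V D3 libraries lie below the other 8. BCB fell 4.92-fold in RanG22V D3 relative to RanG22V D0 (log2 fold change -2.30 ± 0.38, adjusted p = 0.0155, edgeR) and 5.03-fold relative to RanT27N D3 (log2 fold change -2.33 ± 0.38, adjusted p = 0.00703, edgeR). Without replicate 1 labelled RanG22V D3 the last log2 fold change was -2.07 and missed the threshold (adjusted p = 0.0712), in a fit that called 630 genes in all, where all libraries gave 2324. In RanG22V D0, where SAG12, SAG13 and SAG29 were at their highest, BCB did not pass the test against Col D0 (log2 fold change 0.71 ± 0.36, adjusted p = 0.187) or RanT27N D0 (-0.17 ± 0.36, adjusted p = 0.792, edgeR). The closest profiles were those of AT4G18950, PRA1.B4, a gene of the prenylated Rab acceptor family, and AT1G67060, at 0.34, 0.38 and 0.39 log2 units.

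SAG20 had 2 levels in the data and no call. It was at 246 and 163 CPM in RanG22V D3, 509 and 431 CPM in RanG22V D0, 440 and 492 CPM in RanT27N D3, 261 and 227 CPM in RanT27N D0, and 439 and 453 CPM in Col D0. Both libraries of RanG22V D3 and both of RanT27N D0 were thus below the other 6. By labels the directions between days were opposite in the lines, with a log2 fold change of 0.93 ± 0.33 in RanT27N D3 against RanT27N D0 (adjusted p = 0.409) and -1.20 ± 0.33 in RanG22V D3 against RanG22V D0 (adjusted p = 0.0791, edgeR). DESeq2 called the last of these (adjusted p = 0.00179). In RanG22V D0 over RanT27N D0 the log2 fold change was 0.95 ± 0.33 (adjusted p = 0.0796, edgeR), which DESeq2 called too (adjusted p = 0.00845). The difference between the 2 changes from day to day was -2.14 ± 0.47 log2 units (unadjusted p = 0.00123, adjusted p = 0.115, edgeR), and DESeq2 called it with an adjusted p of 7.66e-05. Between RanG22V D3 and RanT27N D3 the log2 fold change was -1.19 ± 0.33 (adjusted p = 0.0511, edgeR). That value passed the threshold with a stricter filter (adjusted p = 0.0429) and by DESeq2 (adjusted p = 0.000959). The closest profiles were those of MTO2, a threonine synthase gene, and VAR1, a chloroplast FtsH protease gene, at 0.22 and 0.24 log2 units, and AT2G35490 at 0.25.

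SAG21 was at 1484 and 910.2 CPM in RanG22V D3, 2349 and 2832 CPM in RanG22V D0, 1171 and 1130 CPM in RanT27N D3, 1193 and 735.5 CPM in RanT27N D0, and 1504 and 853.7 CPM in Col D0. The RanG22V D0 libraries were above all others, whose groups overlapped. The log2 fold change of RanG22V D0 was 1.43 ± 0.46 over RanT27N D0 (adjusted p = 0.0617) and 1.14 ± 0.46 over Col D0 (adjusted p = 0.104), and neither passed the threshold in edgeR. DESeq2 called both, with adjusted p of 0.00416 and 0.0265. Between RanG22V D3 and RanG22V D0 it was -1.11 ± 0.46 (adjusted p = 0.194, edgeR). The closest profiles were those of AT3G27390, SDHAF2, an assembly factor gene of succinate dehydrogenase, and ATM1, a myosin gene, at 0.18, 0.22 and 0.24 log2 units.

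SAG101, the immunity gene, had its lowest mean in RanG22V D0, where SAG12 and SAG29 had their highest. It was at 39.9 and 36.9 CPM in RanG22V D3, 34.7 and 28.9 CPM in RanG22V D0, 52.0 and 57.5 CPM in RanT27N D3, 149.6 and 62.8 CPM in RanT27N D0, and 90.2 and 39.3 CPM in Col D0. The lowest 3 libraries are the 2 of RanG22V D0 and 1 of RanG22V D3. SAG101 fell 3.34-fold in RanG22V D0 relative to RanT27N D0 (log2 fold change -1.74 ± 0.48, adjusted p = 0.0343, edgeR), its only call. Without replicate 1 labelled RanT27N D0 the log2 fold change was -1.01 (adjusted p = 0.239), and without any 1 library labelled RanG22V D0 or RanG22V D3 the log2 fold change was -1.88 to -1.62 and missed the threshold (adjusted p of 0.0541 to 0.182). These 4 fits called 1641 to 3297 genes in all, where all libraries gave 3782. In RanT27N D0 and Col D0, replicate 1 was over replicate 2 in SAG101, while CAB2, a light-harvesting gene, was at 76.0 and 2763 CPM and at 21.3 and 963 CPM in the same order. In RanT27N D3 CAB2 was at 102 and 965 CPM and SAG101 hardly differed. The part of this difference between replicates in the result was not tested. The closest profiles were those of AT3G15350, EIN4, an ethylene receptor gene, and AT5G57710, annotated as SMAX1, at 0.26, 0.29 and 0.29 log2 units.

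**Figure D4:**
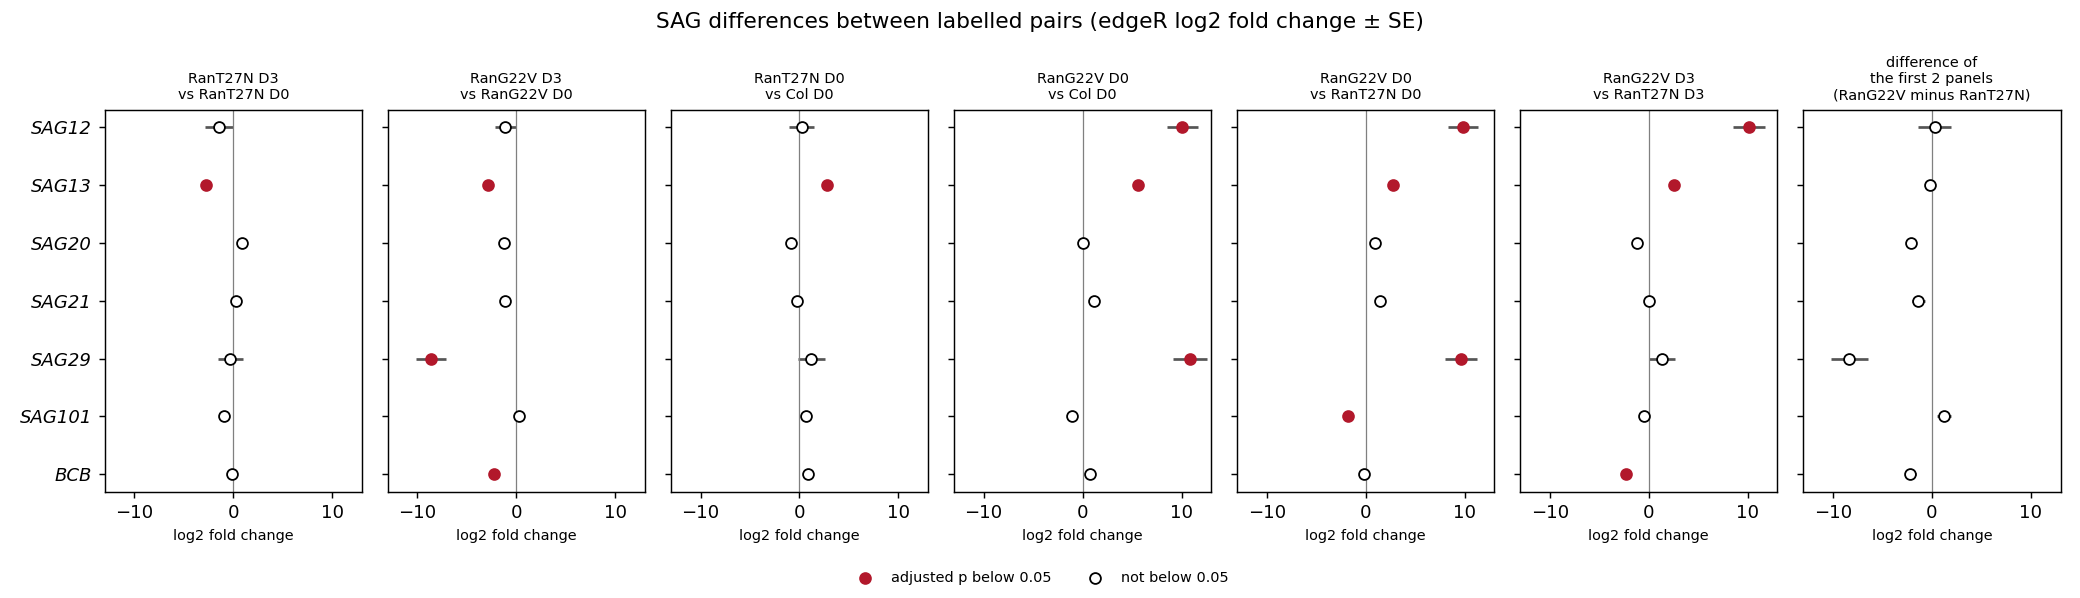
Log2 fold change ± SE (x axis, edgeR, all 10 libraries fitted together) of the 7 SAGs (y axis) in the 6 comparisons between labelled pairs and in the difference of the first 2 panels; filled red points passed an adjusted p of 0.05. SAG12 and SAG29 reach about 10 log2 units in RanG22V D0 over Col D0, while SAG20, SAG21, SAG101 and BCB stay within 2.33 units of 0 in every panel.

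RanT27N D3 against RanT27N D0 asks, by labels, what darkness did in the GDP-form line, and by file headers it sets the 2 lines side by side before darkness (RanT27N over RanG22V). SAG13 was the 1 member of 7 called lower, where 0.321% of the 21475 genes tested were called lower, and 0 members were called higher, where 0.0233% of genes were (0.345% in either direction). The median log2 fold change was -0.30 over the members and 0.00 over all genes. The libraries of the 2 groups did not overlap for 3 members, as for 40.5% of all genes.

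RanG22V D3 against RanG22V D0 asks the same of the GTP-form line, and by file headers it sets RanT27N against RanG22V after darkness. SAG13, SAG29 and BCB were called lower, 3 of 7, where 2.77% of genes were called lower, and 0 were called higher, where 1.17% of genes were (3.94% in either direction). The median was -1.20 over the members and -0.02 over all genes, and the groups did not overlap for 7 of 7 members, as for 59.3% of genes. These 3 calls were all lost without either library labelled RanG22V D3 (0 of 7 called), and SAG29 and BCB were lost without either labelled RanG22V D0 (1 of 7 called). Without a RanG22V D3 library the log2 fold changes were -2.97 and -2.84 for SAG13, -9.64 and -8.03 for SAG29 and -2.04 and -2.62 for BCB. Those 2 fits called 27 and 28 genes in all, and the 2 without a RanG22V D0 library 165 each, where all libraries gave 846.

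At D0 the labels ask what each form of Ran changes relative to the wild type. In RanT27N D0 against Col D0, RanG22V D0 against Col D0 by file headers, SAG13 was the 1 member called higher, where 0.242% of genes were, and 0 were called lower, where 0.00466% were (0.247% in either direction), with a median of 0.71 over the members and 0.00 over all genes. The groups did not overlap for 3 members, as for 35.8% of genes. In RanG22V D0 against Col D0, RanG22V D3 against Col D0 by file headers, SAG12, SAG13 and SAG29 were called higher, 3 of 7, where 11.1% of genes were, and 0 lower, where 12.1% were (23.2% in either direction). The median was 1.14 over the members and 0.00 over all genes, and 6 members did not overlap, as for 62.6% of genes.

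Between the lines at D0 the libraries carry the headers RanG22V D3 and RanG22V D0, which is the dark step of that line by file headers. SAG12, SAG13 and SAG29 were called higher in RanG22V D0 than in RanT27N D0, 3 of 7, where 8.25% of genes were, and SAG101 lower, 1 of 7, where 9.36% were (17.6% in either direction). DESeq2 called 6 of 7 here, with SAG20 and SAG21 added. The groups did not overlap for 6 members, as for 64.7% of genes. Between the lines at D3 the headers are RanT27N D3 and RanT27N D0, the dark step of the other line by file headers. SAG12 and SAG13 were called higher in RanG22V D3 than in RanT27N D3, 2 of 7, where 3.90% of genes were, and BCB lower, 1 of 7, where 6.92% were (10.8% in either direction), with 5 members not overlapping, as for 59.2% of genes. The 6 comparisons share groups with each other, so their calls are not independent.

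In the interaction of line and day 0 of 7 members passed in edgeR, where 0.210% of genes did (0.0186% higher and 0.191% lower), and 3 had an unadjusted p below 0.05. These were SAG20, SAG29 (log2 difference -8.34 ± 1.89, unadjusted p = 0.00147, adjusted p = 0.125) and BCB (-2.16 ± 0.51, unadjusted p = 0.00204, adjusted p = 0.142, edgeR). DESeq2 called these 3, and edgeR without a filter called SAG29 and BCB. By file headers the RanG22V minus RanT27N differences have the opposite sign.

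Relatives and partners of the members were then read from lists of general knowledge. Their counts stand against the shares of all genes called that were given for each comparison. In the papain-like cysteine protease list, SAG12 left aside, 22 of 29 genes were tested. In RanG22V D0 against Col D0, 8 rose and 3 fell, where 11.1% and 12.1% of all genes did, with a median log2 fold change of 1.05. RD21A, a vacuolar protease gene, averaged 3368 ± 668 CPM in RanG22V D0 and 330.9 ± 109 CPM in Col D0 (10.2-fold higher, adjusted p = 0.000893, edgeR), and RD21B rose 12.2-fold. In RanG22V D3 against RanT27N D3, 2 rose and 2 fell, with RD21A 3.13-fold higher and XCP2, a xylem protease gene, 93.8-fold lower. XCP2, also 1 of the 3 xylem markers above, was at 0.165 ± 0.233 against 14.3 ± 1.79 CPM. Its fold is loosely set, as it rests on 5 and 0 counts in RanG22V D3. RD21A and RD21B were the 2 that fell in RanG22V D3 relative to RanG22V D0, by 3.28-fold and 6.88-fold, a comparison in which SAG12 missed the threshold. In RanG22V D0 against RanT27N D0, 8 rose and 4 fell, where 8.25% and 9.36% of all genes did. In RanT27N D3 against RanT27N D0 and in RanT27N D0 against Col D0, 0 of 22 were called.

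Of the SWEET sugar transporters other than SAG29, 10 of 16 were tested. In RanG22V D0 against Col D0, 1 rose and 5 fell. The gene that rose was SWEET2, a transporter of the vacuole membrane, at 240.8 ± 98.6 against 1.36 ± 0.822 CPM (adjusted p = 0.000368, edgeR), and SWEET1, SWEET13 and SWEET17 were among those that fell. SWEET2 also fell 56.4-fold in RanG22V D3 relative to RanG22V D0 (4.22 ± 3.18 against 240.8 ± 98.6 CPM, adjusted p = 0.00459, edgeR), where SWEET1 was the 1 that rose. In RanG22V D3 against RanT27N D3, SWEET12, a sucrose exporter gene of phloem loading, and SWEET13 fell, by 3.55-fold and 11.5-fold. They were the 2 called of 10, where 6.92% of all genes were called lower. SWEET13 was at 3.43 ± 1.21 against 39.6 ± 33.2 CPM (adjusted p = 0.0429, edgeR), with a wide spread in RanT27N D3. In RanG22V D0 against RanT27N D0, 1 rose and 3 fell, where 8.25% and 9.36% of all genes did.

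The list of SAG101 partners and helper receptors had 9 of 9 genes tested. EDS1 fell 5.36-fold in RanG22V D0 relative to RanT27N D0 (10.3 ± 0.446 against 55.3 ± 42.0 CPM, adjusted p = 0.0350, edgeR), with a wide spread in RanT27N D0. It was the 1 called of 9 in this comparison, in which SAG101 fell and 9.36% of all genes were called lower. AT5G66900, the helper receptor gene NRG1.1, fell in RanG22V D0 relative to Col D0 and in RanG22V D3 relative to RanT27N D3, by 2.83-fold and 2.62-fold. It was the 1 called of 9 in each, where 12.1% and 6.92% of all genes were called lower. In the other comparisons between pairs 0 of 9 were called.

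In the list of SAG13-like dehydrogenases, genes clustered near SAG13, 9 of 11 were tested. TRI, annotated as a tropinone reductase, rose and AT2G29290 fell in RanG22V D0 relative to Col D0 and to RanT27N D0. Both also did so in RanG22V D3 relative to RanT27N D3. In RanG22V D3 against RanT27N D3 TRI was at 21.4 ± 1.46 against 0.140 ± 0.198 CPM (adjusted p = 0.00541) and AT2G29290 at 0.0238 ± 0.0336 against 8.16 ± 0.118 CPM (adjusted p = 0.00348, edgeR), 2 higher and 2 lower of 9. All genes were called higher and lower there at 3.90% and 6.92%. In RanG22V D0 against Col D0, 1 was higher and 2 lower, where 11.1% and 12.1% of all genes were. In RanG22V D3 against RanG22V D0 the 1 called of 9 was AT2G29320, 2.79-fold higher (adjusted p = 0.0325, edgeR). In RanT27N D3 against RanT27N D0 and in RanT27N D0 against Col D0, 0 of 9 were called. Of the 2 SAG21-like LEA genes tested, DI21, known for its induction by drought, rose 4.78-fold in RanG22V D3 over RanG22V D0. LEA3 fell in RanG22V D0 relative to Col D0, at low levels with a wide spread in Col D0 (0.0228 ± 0.0323 against 1.46 ± 1.42 CPM, adjusted p = 0.0393, edgeR). Of 5 copper proteins of the plantacyanin and uclacyanin type tested, UCC2 rose in RanG22V D0 over Col D0, at 90.6 ± 0.255 against 0.525 ± 0.602 CPM, and over RanT27N D0 (22.9-fold). It was the 1 called of 5 in each, where 11.1% and 8.25% of all genes were called higher. The median log2 fold change of the list was -2.03 and -2.52 there. In RanG22V D3 against RanT27N D3 the 1 called was AT3G27200, lower at 0.0660 ± 0.0933 against 6.0 ± 0.873 CPM (adjusted p = 0.0114, edgeR), where 6.92% of all genes were.

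Other genes known from senescing leaves went with SAG12 and SAG29 in part. Of 14 such genes 13 were tested, and 9 rose and 0 fell in RanG22V D0 relative to Col D0, where 11.1% and 12.1% of all genes did, with a median log2 fold change of 2.15. BFN1, a senescence nuclease gene, was at 235.3 ± 47.6 against 0.429 ± 0.184 CPM, SRG1 at 213.1 ± 19.7 against 1.27 ± 0.737 CPM, and SAUR36 at 100.9 ± 26.98 against 0.448 ± 0.00101 CPM (adjusted p = 0.00032, 0.000209 and 0.000266, edgeR). BFN1 was at 2.39 ± 0.353 CPM in RanG22V D3, a 98.5-fold fall relative to RanG22V D0 (adjusted p = 0.00437), and it was the 1 of 13 called in the interaction (log2 difference -7.14 ± 1.04, adjusted p = 0.0341, edgeR). In RanG22V D0 over RanT27N D0 7 of 13 rose and 0 fell, where 8.25% and 9.36% of all genes did. In RanG22V D3 over RanT27N D3 2 of 13 rose, SRG1 (48.4-fold) and SAUR36 (57.0-fold). Of the 13, 4 fell in RanG22V D3 relative to RanG22V D0, and 0 were called in RanT27N D3 against RanT27N D0 or in RanT27N D0 against Col D0.

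Among 21 tested regulators of senescence, 7 rose and 3 fell in RanG22V D0 relative to Col D0, where 11.1% and 12.1% of all genes did. WRKY45 rose 19.8-fold there and 15.1-fold in RanG22V D3 over RanT27N D3, and WRKY57 6.32-fold and 5.83-fold. In RanG22V D3 against RanT27N D3, 3 rose and 4 fell, where 3.90% and 6.92% of all genes did. In RanG22V D0 against RanT27N D0, 7 rose and 1 fell, where 8.25% and 9.36% did, with WRKY45 15.8-fold and WRKY57 6.74-fold higher. WRKY53, which is known to act early in senescence, was the 1 that fell there, by 6.18-fold (15.69 ± 4.725 against 97.05 ± 62.25 CPM, adjusted p = 0.0113, edgeR). It fell 8.95-fold in RanG22V D3 relative to RanT27N D3 (11.08 ± 2.891 against 99.34 ± 51.66 CPM, adjusted p = 0.0104, edgeR). Its spread was wide in RanT27N D0 and RanT27N D3. WRKY6 was 9.76-fold lower in RanG22V D3 than in RanG22V D0 (5.54 ± 1.11 against 54.2 ± 19.5 CPM, adjusted p = 0.00414) and was the 1 regulator called in the interaction (adjusted p = 0.0454, edgeR). WRKY75 was the 1 called in RanT27N D3 against RanT27N D0, 10.14-fold lower, and 0 of 21 were called in RanT27N D0 against Col D0.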

How the data were processed

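RNA of whole leaves was sequenced from Lexogen Quant-Seq libraries, per the labels. Each library has 1 file of whole-number read counts, deposited by the authors without normalization, and Bowtie2, edgeR and TAIR10 are named in the submitters' processing notes. Neither versions nor the counter and its use of strand were found in the labels, headers or notes. Rows were paired with loci through the RefSeq gene table of TAIR10.1, which matched 98.6% of them, and promoter sequences come from that genome and its annotation, not from the deposited files.

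The test was edgeR's quasi-likelihood test (edgeR 4.0.16 in R 4.3.3). After filterByExpr and TMM scaling, the 10 libraries entered 1 fit with a mean for each of 5 groups. Each gene had its own estimate of the spread, shared by the groups. The biological coefficient of variation common to all genes, given as a summary, was 45%. The p-values were adjusted over all 21475 genes (called at an adjusted p below 0.05). The SE given is |log2 fold change| over the square root of edgeR's F. CPM use TMM-scaled library sizes and are given per library or as mean ± SD. The labels name no molecular identifiers, so floors cover counting error only. Levels are not compared between genes.

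The members, lists and rules were chosen with earlier results of these data known. All members were named, with the 3 closest profiles of each among genes of at least 10 CPM on average, and in each list at most 4 called genes per comparison, taken by adjusted p. Alternatives were DESeq2 1.42.0, its size factors in edgeR, no filter, a stricter filter (1 CPM in 4 libraries), a replicate term and each library left out.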

Additional observations from a re-analysis of the deposited data

How the results depend on the processing

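With DESeq2 size factors in edgeR, every count of members called was the same. In the interaction, where 0 of 7 members passed, DESeq2 called 3 and edgeR without a filter 2. When 1 library was left out, the count of members called ran from 0 to 1 in RanT27N D3 against RanT27N D0 and in RanT27N D0 against Col D0, from 0 to 3 in RanG22V D3 against RanG22V D0, from 3 to 4 in RanG22V D0 against Col D0, from 3 to 5 in RanG22V D0 against RanT27N D0 and from 2 to 4 in RanG22V D3 against RanT27N D3. With a lone library left, that library is assumed to vary like the other groups. Over all genes, DESeq2 called 558, 2567, 399, 4146 and 705 genes in RanT27N D3 against RanT27N D0, RanG22V D3 against RanG22V D0, RanT27N D0 against Col D0, RanG22V D3 against RanT27N D3 and the interaction, where edgeR called 74, 846, 53, 2324 and 45. Without a filter edgeR called 563, 2107, 391, 3709 and 568 there. The deviations of same-numbered replicates correlated at 0.12, 0.31 and 0.19 among Col D0, RanT27N D0 and RanT27N D3 and at -0.01 to 0.07 in the other 7 pairs of groups, so the numbers were not taken to pair all samples. With the replicate block, SAG21 was also called in RanG22V D0 against RanT27N D0 (adjusted p = 0.0303, 5 members called) and SAG20 in RanG22V D3 against RanT27N D3 (adjusted p = 0.0387, 4 members called), the interaction held 83 genes in all, and SAG12 in RanT27N D0 against Col D0 had a log2 fold change of -0.24 where it was 0.24. The cause was not tested. The changes of sign on leaving out 1 library concern fold changes that were not called. In RanT27N D3 against RanT27N D0, SAG12 ran from -3.36 to 0.87, SAG21 from -0.05 to 0.67, SAG29 from -1.25 to 7.06 and BCB from -0.40 to 0.20. In RanT27N D0 against Col D0, SAG12 ran from -2.03 to 6.80, SAG21 from -0.71 to 0.20, SAG29 from -6.17 to 4.12 and SAG101 from -0.07 to 1.46. SAG20 ran from -0.05 to 0.19 in RanG22V D0 against Col D0, BCB from -0.43 to 0.12 in RanG22V D0 against RanT27N D0, and SAG21 from -0.34 to 0.37 in RanG22V D3 against RanT27N D3. In the interaction SAG12 ran from -2.00 to 2.29 and SAG13 from -0.56 to 0.39. Counts of 0 to 53 limit SAG12 and SAG29 in the low libraries.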

Other observations

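PI, a floral organ identity gene, had 91 and 72 counts (4.15 and 3.45 CPM) in RanG22V D0, and 0 to 8 counts in each of the other 8. SHV2, known for root hair growth, had 11 and 17 counts in the same pair and 0 in the others.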
